A study of Mus musculus with 9 samples.

Results

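F-box proteins are the substrate-binding subunits of SCF ubiquitin ligases, and the genes described here are those whose symbol begins with Fbxl, Fbxo or Fbxw followed by a number. Fbxo21, Fbxo30, Fbxo31, Fbxo32 and Fbxo40, which are known from muscle atrophy, were left out. The rule picks members by name and uses no measured value, but it was set with earlier results of these data known. They number 54 of the 14971 protein-coding genes listed in at least 1 of the deposited tables, with 17 Fbxl, 28 Fbxo and 9 Fbxw genes. Of these, 50 were listed in the control and ORX table, 53 in the ORX and ORX+DHT table and 49 in both. The question was whether any of them followed androgen across the 3 groups.

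RNA came from the tibialis anterior, a fast muscle of the lower leg, of male C57BL/6J mice, an inbred strain with no engineered allele named in the labels. The groups were control mice (called sham in the tables), mice whose testes had been removed (ORX), and mice without testes that received dihydrotestosterone (ORX+DHT), an androgen that binds the androgen receptor directly. There were 3 libraries per group, taken 4 weeks after treatment. The labels call them biological replicates. The age of the mice, the dose and route of the hormone and any pooling of animals are not given in the sources used here, and every value is from whole muscle.

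An SCF ligase is built on the scaffold cullin 1, with the RING protein Rbx1 at one end and the adaptor Skp1 at the other. Skp1 holds an F-box protein, which binds the target through leucine-rich repeats in Fbxl proteins, WD40 repeats in Fbxw proteins, or other domains in Fbxo proteins. Attachment of NEDD8 activates the cullin, the COP9 signalosome removes it, and CAND proteins exchange one F-box subunit for another. In muscle, F-box genes are best known through Fbxo32 (atrogin-1), which rises when fibres waste. Androgen is known to maintain muscle mass.

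Promoter sequence was examined because androgen receptor binds a palindrome of the half-site AGAACA, a 3-base spacer and TGTTCT. RefSeq promoters (GRCm38.p6, the 250 bases before each annotated start, both strands searched) were given for 42 of the 54 members. The full palindrome was in 0 of the 42, and in 3 of the 27025 genes with a promoter (0.0111%). The single half-site was in 4 members, Fbxo44, Fbxo5, Fbxo9 and Fbxw5 (9.52%), against 4912 of all genes (18.2%). The FoxO motif GTAAACA was in 0 of the 42 and in 956 of all genes (3.54%). The windows of Fbxw5 and of one annotated start of Fbxo9 are shown because these were among the 3 members with the highest level per kilobase, and the window of Fbxo2 because it reaches back over the 138 bases that part it from Fbxo44, its head-to-head neighbour. Each is written 5′ to 3′ on the strand of its gene, and capitals mark the half-site, read here as TGTTCT because it lies on the opposite strand.
Fbxw5, chr2:25500500-25500749, plus strand: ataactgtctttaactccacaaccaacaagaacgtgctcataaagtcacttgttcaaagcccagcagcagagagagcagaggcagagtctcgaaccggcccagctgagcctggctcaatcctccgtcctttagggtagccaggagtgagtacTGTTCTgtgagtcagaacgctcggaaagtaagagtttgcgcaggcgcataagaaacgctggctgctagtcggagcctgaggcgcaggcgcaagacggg
Fbxo9, chr9:78108657-78108906, minus strand: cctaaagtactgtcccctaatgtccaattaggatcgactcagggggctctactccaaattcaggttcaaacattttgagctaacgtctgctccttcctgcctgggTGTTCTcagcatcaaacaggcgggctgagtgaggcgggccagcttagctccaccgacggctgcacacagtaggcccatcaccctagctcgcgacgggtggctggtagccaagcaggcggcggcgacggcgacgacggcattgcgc
Fbxo2, chr4:148160418-148160667, plus strand: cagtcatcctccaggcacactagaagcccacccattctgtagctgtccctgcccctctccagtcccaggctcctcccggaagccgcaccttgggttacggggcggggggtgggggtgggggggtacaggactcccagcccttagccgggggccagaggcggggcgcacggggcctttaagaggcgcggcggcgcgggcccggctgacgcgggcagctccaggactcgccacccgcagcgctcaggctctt
A match is a stretch of letters and not a shown binding site. The Fbxo2 window holds none of the 3 motifs.

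The libraries held 1340209 to 1682235 reads each in listed genes. Control 1 stood apart from the other 8 libraries: it scored 47.2 on the first principal component (30.7% of the variance), where the others lay between -10.6 and -0.716. Over 8631 genes (not independent of each other) Pearson's r of replicate pairs was 0.928 to 0.968 for control, 0.966 to 0.973 for ORX and 0.970 to 0.971 for ORX+DHT. Muscle fibre markers dominated every library (summed level 261080 to 354070 normalised counts, 8 of 8 genes present), and no list of markers had a gene at 0 in all libraries. Summed fibroblast markers (5 genes) ranged over 1352 to 2729 (control), 2876 to 3841 (ORX) and 1700 to 2388 (ORX+DHT). Schwann cell markers (4 genes) ranged over 94.0 to 99.3, 134.8 to 155.1 and 91.2 to 127.6 in the same order. Comparing ORX+DHT with ORX, the markers that passed were the fibroblast genes Lum (log2 fold change -1.79) and Col1a1 (-1.18) and the slow-fibre gene Myl3 (-0.75), which fell, and the fibre genes Acta1 (0.47) and Myh1 (0.47), which rose. Summed fibroblast and Schwann markers were lower in ORX+DHT than in ORX without overlap. So were slow-fibre markers (79.0 to 119 against 156 to 209) and tendon markers (14.2 to 19.8 against 22.3 to 29.9). Summed fibre markers were higher without overlap (273610 to 297040 against 261080 to 272000), and the other lists overlapped. Within the fibre and fibroblast lists, genes went both ways. Of the 8 fibre markers 5 were positive, while Pvalb was lower without overlap (-0.28). Of the 5 fibroblast markers 1 was positive (Pdgfra, 0.059), and Dcn was at -0.051. In whole muscle, fewer cells of a type and less RNA per cell cannot be told apart, and the part these shifts play in the results below was not tested.

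For comparison, 6 androgen-responsive reference genes were fitted in the same way. They were chosen with earlier results of these data known, so their passing is not an independent check. Amd1, a polyamine synthesis enzyme, had 725, 707 and 555 (control), 148, 179 and 192 (ORX) and 889, 978 and 918 (ORX+DHT) normalised counts. Its log2 fold change was -1.93 ± 0.16 (SE) after orchiectomy (ORX against control) and 2.42 ± 0.1 with the hormone (ORX+DHT against ORX), with adjusted p = 7.96e-04 and 5.94e-11 (limma). Of the 6, 2 passed the test after orchiectomy, 5 with the hormone and 4 in the androgen contrast defined below. The 5 that passed with the hormone had log2 fold changes of 1.08 to 2.42, so they do not show whether smaller changes would be seen.

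Of the 49 members in both tables, 28 had a mean of at least 10 normalised counts over the 9 libraries, the level required for a test. They were 9 Fbxl, 13 Fbxo and 6 Fbxw genes. These 28 rested on 96 to 2206 reads over the 9 libraries, while the other 21 rested on 1 to 77. Compared per kilobase of annotated exon, Fbxw5 was highest at 48.3 normalised counts per kilobase, followed by Fbxo3 at 33.3, Fbxo9 at 28.1 and Fbxw11 at 25.3. For comparison, the left-out atrophy genes Fbxo40 and Fbxo32 stood at 115 and 75.8. Replicate libraries of these 28 members varied little beyond counting: the variance within groups was a median of 1.04 times that expected from read counting alone. It was under 2 times in 23 of 28. Over all 8631 genes with a mean of at least 10 the median was 1.505, and 5520 were under 2. This ratio rises with read depth where libraries differ beyond counting, and the 8631 include the abundant fibre genes. The sets were not matched for level, so the medians do not compare F-box genes with genes of like level.

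**Figure D1:**
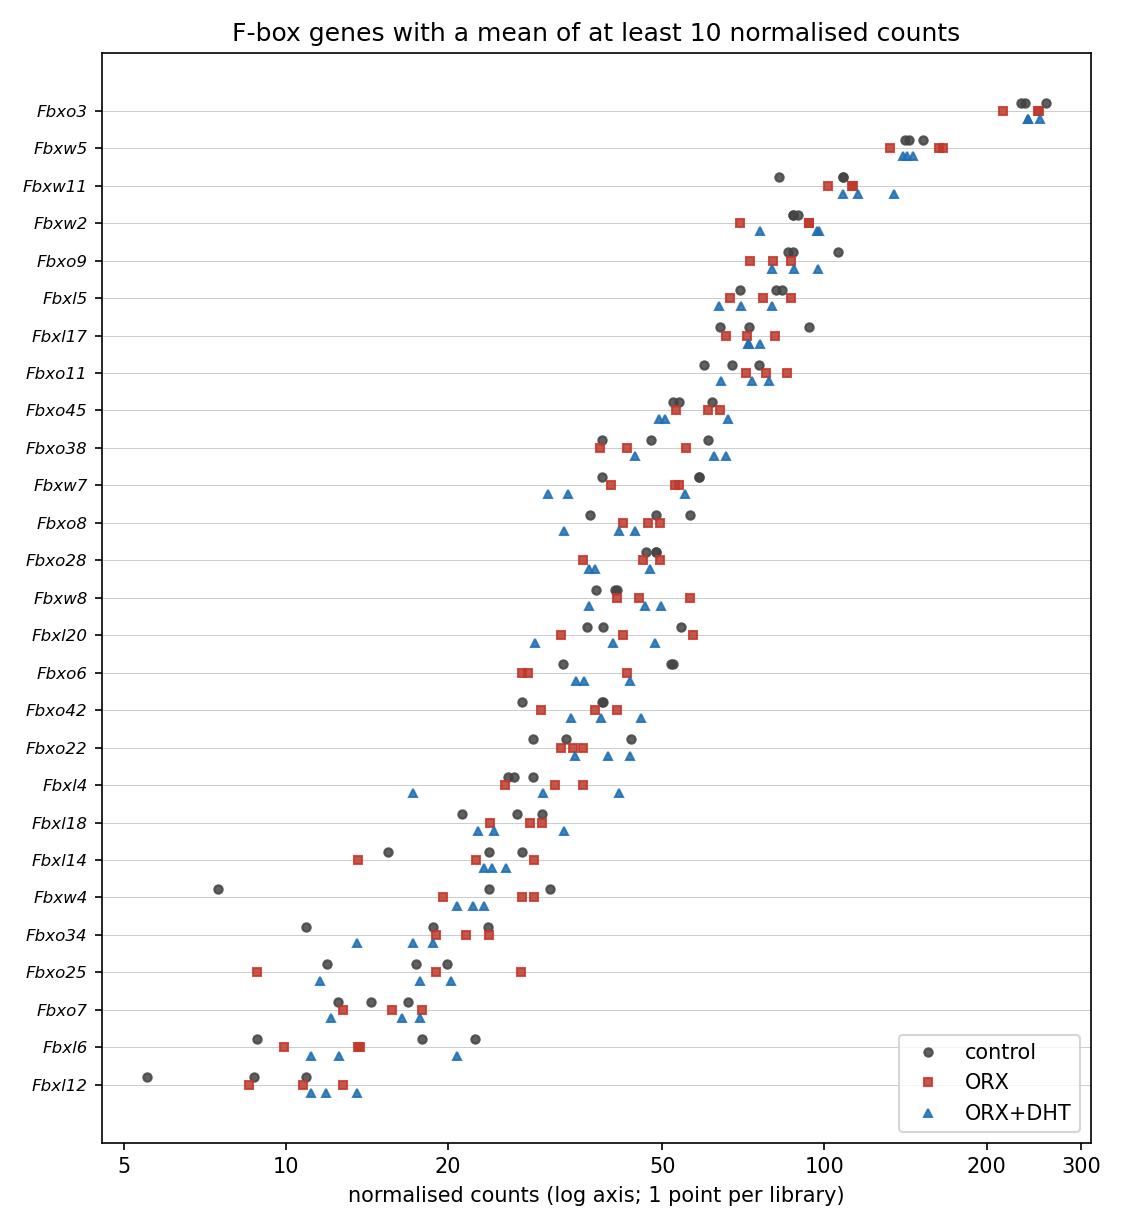
Normalised counts (log axis) of 27 of the 28 F-box genes with a mean of at least 10, with 1 point per library and the groups in separate rows of points (control circles, ORX squares, ORX+DHT triangles), ordered by level. The 3 groups interleave in nearly every gene, from Fbxo3 near 241 to Fbxl12 near 10.4, and the lone low point of Fbxw4 is control 1.

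No tested F-box transcript was called changed after removal of the testes. In ORX against control, 0 of the 27 members tested passed an adjusted p under 0.05 (limma, Benjamini-Hochberg over 8631 genes), where 0.0579% of all genes did. At an unadjusted p under 0.05 the count was 0, against 7.21% of all genes, and edgeR and DESeq2 on the recovered reads also called 0. Log2 fold changes on the log2(value + 1) scale ran from -0.464 for Fbxo6 to 0.460 for Fbxw4, with 14 members positive and 13 negative. The smallest adjusted p was 0.72. The median size of the change was 0.076, against 0.188 over all genes tested. In 0 members were the groups free of overlap, against 14.3% of all genes. In 24 of 27 the 95% interval of the fold change lay within 2-fold either way (80.6% of all genes). A larger change is outside the interval for those. The interval lay within 1.5-fold in only 14 of 27, so a change of 1.5-fold is inside it for the others. The 3 whose intervals reached beyond 2-fold were Fbxo6, Fbxl6 and Fbxw4. Of these, Fbxw4 had 7.49 normalised counts in control 1 and 31.0 and 23.8 in the other controls.

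In orchiectomised mice given dihydrotestosterone (ORX+DHT against ORX), 4.08% of all genes (358 of 8770) and 0 of the 28 F-box members tested were called. At that share, and at the lower shares of the other comparisons, 0 calls among so few genes is not unusual. Unadjusted p-values under 0.05 were 0 as well, against 14.3% of all genes, and edgeR and DESeq2 each called 0. Of the 28, 12 were positive and 16 negative, from -0.369 for Fbxo34 to 0.327 for Fbxo38. The smallest adjusted p was 0.459. The median size was 0.13, against 0.168 over all genes. Fbxo34 alone had groups that did not overlap, being lower in ORX+DHT, against 19.5% of all genes. The 95% interval lay within 2-fold in 28 of 28 members, against 88.1% of all genes, and within 1.5-fold in 16 of 28.

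Treated mice were also set against controls, on the scale that joins both tables. In ORX+DHT against control 0 of 28 members passed (0.0349% of all genes), 0 had an unadjusted p under 0.05 (6.48%), and edgeR and DESeq2 called 0. Fold changes ran from -0.402 for Fbxw7 to 0.527 for Fbxl12, with 15 positive and 13 negative, and the smallest adjusted p was 0.752. Fbxl12 was the 1 member whose groups did not overlap (14% of all genes): it had 8.74, 5.53 and 10.9 (control), 12.8, 8.53 and 10.8 (ORX) and 11.1, 13.5 and 11.9 (ORX+DHT) normalised counts, on 5 to 14 reads a library. In 26 of 28 the interval lay within 2-fold (80.4% of all genes), the exceptions being Fbxl12 and Fbxw4. It lay within 1.5-fold in 11 of 28.

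The direct test of following androgen set the mean of control and ORX+DHT against ORX over all 9 libraries. Here 0 of 28 members passed, against 1.17% of all genes (101 of 8631), and 0 had an unadjusted p under 0.05, against 9.44%. Neither edgeR nor DESeq2 called any (0 each). Log2 differences ran from -0.342 for Fbxo34 to 0.344 for Fbxo6, the smallest adjusted p was 0.683, and 11 members were positive and 17 negative. In 0 members did all 6 libraries with androgen lie on one side of the ORX libraries, against 5.54% of all genes. In 27 of 28 the interval lay within 2-fold (91% of all genes), with Fbxw4 the exception. It lay within 1.5-fold in 19 of 28. The ORX libraries serve 3 of the 4 comparisons, so the same libraries enter more than once. Without control 1 the number of all genes called rose from 5 to 51 (ORX against control), from 3 to 66 (ORX+DHT against control) and from 101 to 277 (the androgen contrast), while the F-box members called stayed at 0 in each.

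**Figure D2:**
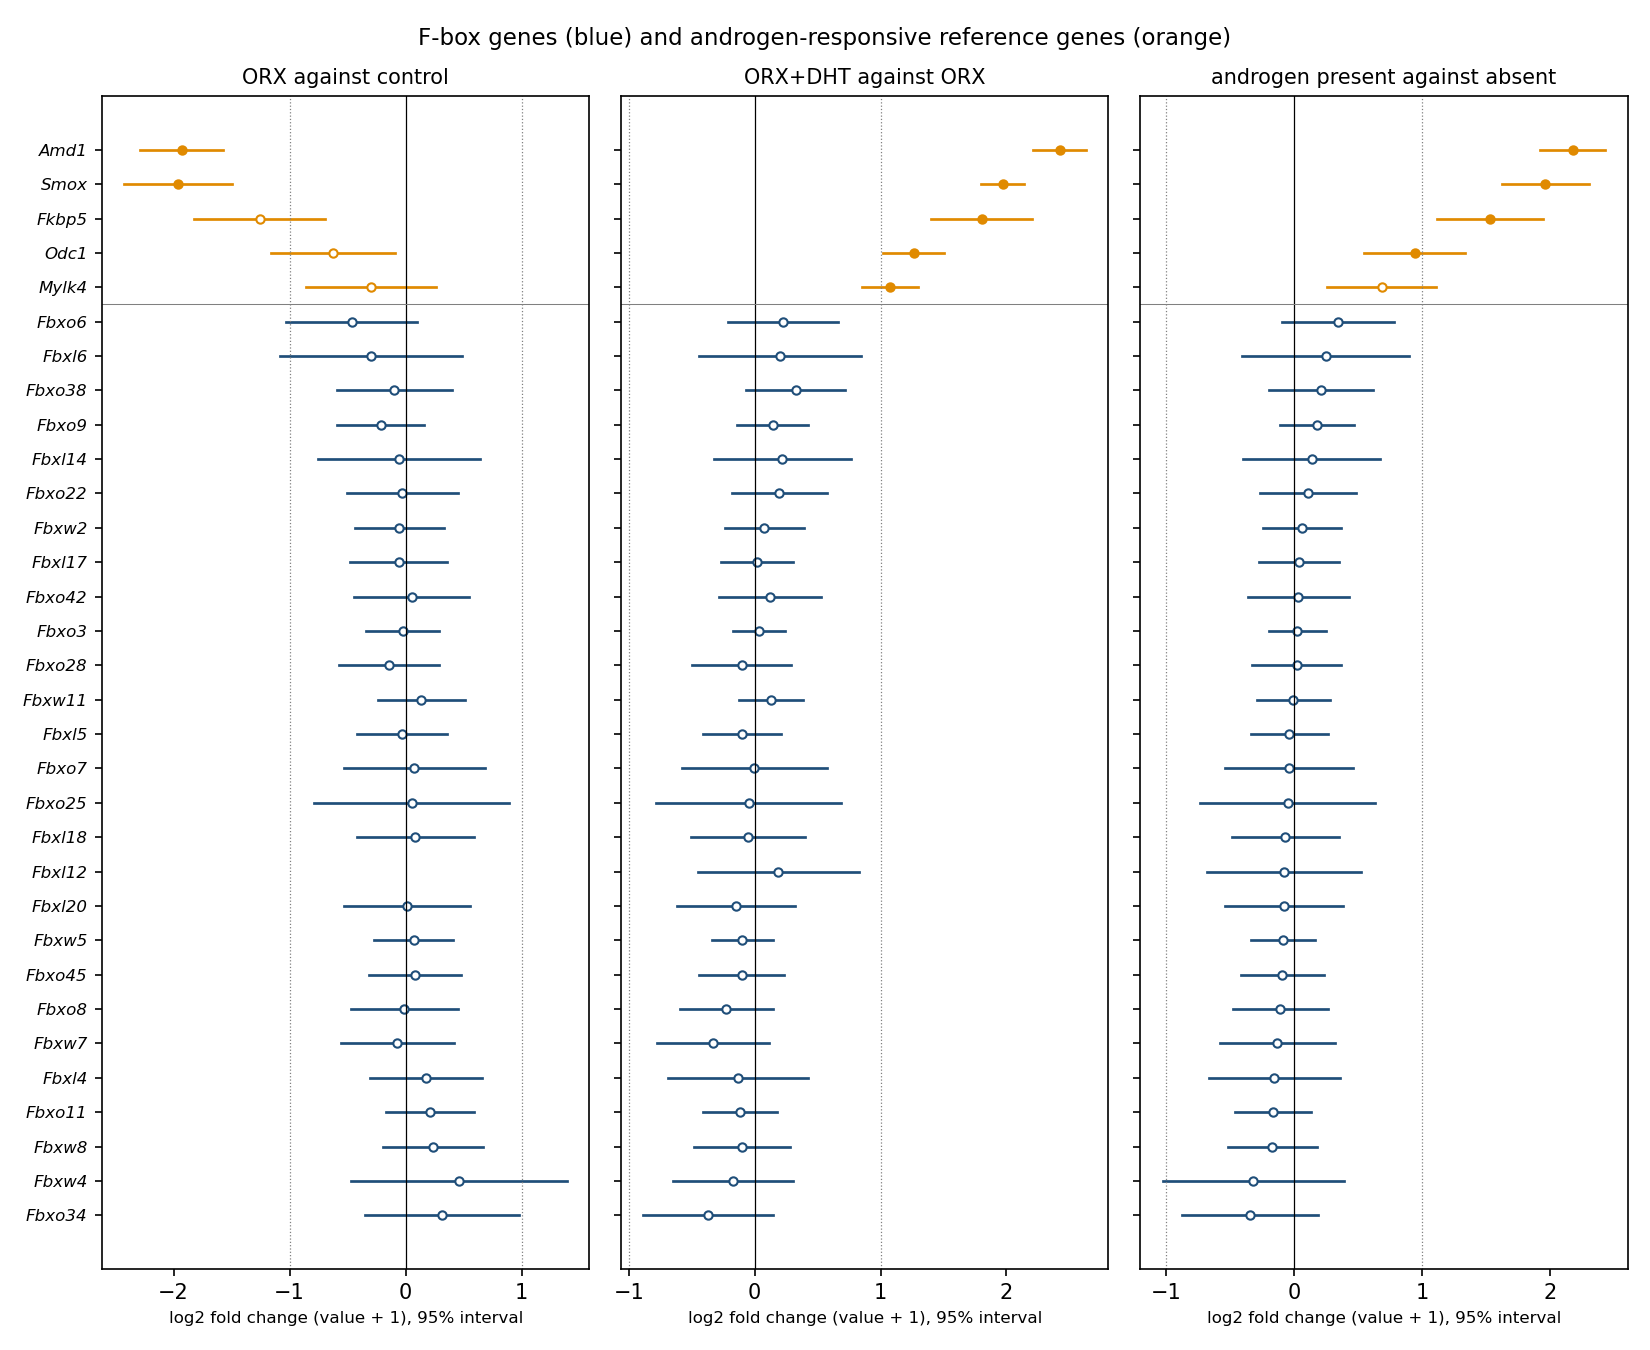
Log2 fold changes of 27 tested F-box genes (blue) and of 5 androgen-responsive reference genes (orange) in 3 comparisons, with limma's 95% intervals; filled points passed an adjusted p of 0.05, open points did not, and dotted lines mark 2-fold. All blue points are open and lie between -0.464 and 0.460, while Amd1 reaches 2.42 in ORX+DHT against ORX; Fbxl12 was under the level required in the first panel.

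Among the WD40-repeat genes, Fbxw5 was the most abundant per kilobase. It has been described in complexes with both cullin 1 and cullin 4. Its normalised counts were 152, 144 and 141 (control), 163, 132 and 166 (ORX) and 139.8, 142 and 146 (ORX+DHT). The groups overlapped, the log2 difference with androgen was -0.085 ± 0.12 (SE), and the 95% interval was -0.33 to 0.16. Fbxw11 (beta-TrCP2), which recognises phosphorylated IκB and beta-catenin, had 82.4, 108 and 108 (control), 113, 101 and 112 (ORX) and 135, 108 and 116 (ORX+DHT). ORX+DHT was highest on average, but 1 of its libraries lay below 2 of the ORX libraries. Its fold change was 0.13 ± 0.12 against ORX and 0.27 ± 0.17 against control (adjusted p = 0.708 and 0.752, limma). Its near relative Btrc (beta-TrCP1), which the naming pattern does not cover, had 46.2, 43.1 and 42.7 (control), 40.2, 38.4 and 38.9 (ORX) and 49.7, 49.3 and 45.5 (ORX+DHT). All 3 ORX libraries of Btrc lay below all 6 others, where 5.54% of all genes had groups free of overlap in this contrast. The log2 difference with androgen was only 0.23 ± 0.14 with adjusted p = 0.703 (limma), so it did not pass. The NEDD8 cycle gene Ube2m and Jun separated in the same way (0.32 and 0.40). Neither passed this contrast (adjusted p = 0.478 and 0.267, limma).

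Fbxw7, the subunit that targets Myc, Jun, Notch1 and cyclin E, had 38.7, 58.6 and 58.6 (control), 40.2, 52.9 and 53.8 (ORX) and 33.4, 55.1 and 30.6 (ORX+DHT). A pair of low libraries in ORX+DHT and 1 low library in each other group set its spread. The fold change was -0.33 ± 0.21 with the hormone (adjusted p = 0.518, limma) and -0.072 ± 0.22 after orchiectomy, so control and ORX stood close together and ORX+DHT lower on average. Without ORX+DHT 2 the first became -0.587 with an unadjusted p of 0.0107 and an adjusted p of 0.178. Fbxw8 works with cullin 7 and has Irs1, the insulin receptor substrate, among its targets. It had 41.2, 40.9 and 37.7 (control), 41.2, 45.2 and 56.2 (ORX) and 49.7, 46.4 and 36.6 (ORX+DHT), with overlapping groups and a log2 difference with androgen of -0.17 ± 0.16. Fbxw2 had 87.4, 87.3 and 89.4 (control), 69.7, 93.8 and 93.5 (ORX) and 76.0, 96.7 and 97.8 (ORX+DHT), where the 3 controls lay close together and the other groups spread around them.

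Among the leucine-rich repeat genes, Fbxl5 senses iron through a hemerythrin domain and degrades the iron regulatory protein encoded by Ireb2. Its normalised counts were 81.2, 69.7 and 83.4 (control), 66.7, 76.8 and 86.9 (ORX) and 80.1, 63.8 and 70.2 (ORX+DHT), and the log2 difference with androgen was -0.038 ± 0.14. The Ireb2 transcript, which encodes that protein, averaged 70.4 ± 18.7 (control), 72.3 ± 10.1 (ORX) and 72.0 ± 14.9 (ORX+DHT) (SD, n = 3). Fbxl17, a quality-control subunit for BTB-domain dimers, had 93.6, 64.1 and 72.5 (control), 65.8, 81.0 and 72.0 (ORX) and 76.0, 72.5 and 72.1 (ORX+DHT). Its 3 ORX+DHT libraries lay within the range of both other groups, and the difference with androgen was 0.039 ± 0.15. Fbxl4, a mitochondrial F-box protein that restrains mitophagy through Bnip3 and Bnip3l, had 28.7, 26.5 and 25.8 (control), 25.5, 31.6 and 35.6 (ORX) and 17.2, 30.0 and 41.5 (ORX+DHT). The ORX+DHT libraries spanned the other 6, and leaving out ORX+DHT 1 turned the fold change against ORX from -0.13 to 0.198, neither of which passed.

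Fbxl22, a striated-muscle subunit described at the Z-disc, fell under the level tested. It had 13.7, 5.53 and 6.95 (control), 19.6, 5.97 and 5.79 (ORX) and 7.09, 7.73 and 4.94 (ORX+DHT) normalised counts, on 5 to 20 reads. A single ORX library and a single control library were high and the other 7 lay between 4.94 and 7.73. Among the other Fbxl genes tested, Fbxl6, Fbxl12, Fbxl14, Fbxl18 and Fbxl20 had means of 10.4 to 42.1 and log2 differences with androgen between -0.079 and 0.25.

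Of the Fbxo genes, Fbxo3 had the most reads, 189 to 301 a library. Fbxo3 is described as a ligase for another F-box protein, Fbxl2. It had 236, 258 and 231 (control), 215, 251 and 249 (ORX) and 239, 239 and 251 (ORX+DHT), or 242 ± 14.0 (control), 238 ± 20.2 (ORX) and 243 ± 6.93 (ORX+DHT) (SD, n = 3). Its log2 difference with androgen was 0.027 ± 0.11 with an interval of -0.20 to 0.25. Fbxo9, which targets the mTOR partner proteins Tel2 and Tti1, had 87.4, 106 and 85.4 (control), 72.6, 80.2 and 86.9 (ORX) and 97.3, 88.0 and 80.0 (ORX+DHT). The ORX mean was the lowest of the 3, the groups overlapped, and the difference with androgen was 0.18 ± 0.13 (adjusted p = 0.775, limma). The half-site windows shown above belong to Fbxw5 and Fbxo9, whose differences with androgen were of opposite sign and did not pass.

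Fbxo6 had the highest positive difference with androgen of the family. It belongs, with Fbxo2, Fbxo17, Fbxo27 and Fbxo44, to a group with a sugar-binding domain, most of which bind glycoproteins for disposal from the endoplasmic reticulum. Its normalised counts were 52.4, 52.0 and 32.8 (control), 27.5, 28.1 and 43.0 (ORX) and 43.6, 35.8 and 34.6 (ORX+DHT). A pair of controls were high and 2 ORX libraries low, but the third of each group crossed over, and the 3 ORX+DHT libraries lay between the high controls and the low ORX libraries. The log2 fold change was -0.46 ± 0.26 after orchiectomy, 0.23 ± 0.21 with the hormone and 0.34 ± 0.20 in the androgen contrast, with adjusted p = 0.72, 0.697 and 0.683 (limma). Without control 3 the first was -0.684 with an unadjusted p of 0.0227 and an adjusted p of 0.444. Without ORX 3, the high ORX library, the androgen difference was 0.547 (unadjusted p = 0.0280, adjusted p = 0.599) and the hormone value 0.429, while leaving out other libraries took the hormone value as low as 0.115. Its gene lies at chr4:148145716-148152140, 659 bases from Fbxo44 at chr4:148152800-148160482, which in turn lies 138 bases from Fbxo2 at chr4:148160621-148166424 (GRCm38, GENCODE M21). These 3 neighbours had unlike levels: Fbxo44 averaged 9.07 ± 5.35 (control), 6.50 ± 1.39 (ORX) and 6.29 ± 2.62 (ORX+DHT) (SD, n = 3), and Fbxo2 had 2 reads in all 9 libraries.

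Fbxo34 was the only tested member whose ORX and ORX+DHT groups did not overlap. It had 23.7, 18.8 and 10.9 (control), 21.6, 23.9 and 19.0 (ORX) and 17.2, 13.5 and 18.8 (ORX+DHT). All 3 ORX+DHT libraries were below all 3 ORX libraries, by a gap from 18.8 to 19.0, and the controls overlapped both. Its fold change was -0.37 ± 0.24 with adjusted p = 0.54 (limma), on 14 to 28 reads a library in these groups. Over the alternative fits the adjusted p was 0.519 to 0.825.

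Fbxo7, which works with Parkin in mitophagy and binds the proteasome regulator PI31, had 12.5, 14.4 and 16.9 (control), 12.8, 17.9 and 15.7 (ORX) and 12.2, 16.4 and 17.8 (ORX+DHT), with the 3 groups laid over each other. Fbxo11, a ligase for Bcl6, had 67.4, 59.7 and 75.5 (control), 71.7, 85.3 and 77.8 (ORX) and 79.0, 73.5 and 64.2 (ORX+DHT), and its difference with androgen was -0.16 ± 0.14. Bcl6 itself averaged 168 ± 64.9 (control), 152 ± 18.5 (ORX) and 160.4 ± 26.9 (ORX+DHT) normalised counts (SD, n = 3). The Fbxo member with the highest fold change in ORX+DHT against ORX, singled out after its values were seen, was Fbxo38, described as a ligase for the T-cell checkpoint receptor PD-1. It had 38.7, 60.8 and 47.7 (control), 38.3, 55.4 and 43.0 (ORX) and 44.6, 65.7 and 62.2 (ORX+DHT), and the fold change was 0.33 ± 0.19 with adjusted p = 0.459. Leaving out 1 library at a time, its unadjusted p went as low as 0.0201, with an adjusted p of 0.266. Fbxo8, Fbxo22, Fbxo25, Fbxo28, Fbxo42 and Fbxo45 made up the rest, with means of 17.1 to 56.9 and differences with androgen between -0.11 and 0.11.

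The 21 members under the level tested comprised Fbxl2, Fbxl7, Fbxl8, Fbxl15, Fbxl16, Fbxl19 and Fbxl22, the 12 genes Fbxo2, Fbxo4, Fbxo5, Fbxo10, Fbxo17, Fbxo24, Fbxo27, Fbxo33, Fbxo36, Fbxo39, Fbxo44 and Fbxo46, and Fbxw9 and Fbxw17. Their means ran from 0.109 for Fbxo39 to 8.60 for Fbxl22. A change is not detectable at such a depth unless it is large. Fbxo5 (Emi1), an inhibitor of the anaphase-promoting complex that is active in dividing cells, was noticed after its values were seen: it had 1, 2 and 3 reads in the ORX libraries, 0, 0 and 1 in control and 0 in each ORX+DHT library. With no filter on low genes its difference with androgen had an unadjusted p of 0.00332 and an adjusted p of 0.185 (limma), on 7 reads in all, so it rests on single reads. Fbxw17, the only one listed of 15 annotated genes named Fbxw13 to Fbxw28, had 4.99, 6.63 and 7.95 (control), 6.87, 0.853 and 3.31 (ORX) and 12.2, 6.77 and 6.92 (ORX+DHT), with 1 ORX library near 1 read and adjusted p = 0.483 in the same unfiltered contrast. The 5 members of a single table had almost no reads: Fbxl13, Fbxo47 and Fbxo48 had 2 each and Fbxo41 and Fbxw10 had 1 each over 6 libraries.

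Summed over the 49 members, the F-box transcript level overlapped between all 3 groups. Control libraries held 1667, 1760 and 1686 normalised counts, ORX libraries 1667, 1718 and 1763, and ORX+DHT libraries 1685, 1690 and 1715. Group means were 1705 ± 49.2, 1716 ± 48.0 and 1697 ± 16.2 (SD, n = 3). By class, the means in control, ORX and ORX+DHT were 438.2, 448.5 and 423.2 for Fbxl, 810.0, 790.8 and 802.6 for Fbxo, and 456.3, 476.4 and 471.1 for Fbxw genes. Fbxo3 and Fbxw5 contribute 241 and 147 of the sum on average, so it describes the abundant members more than the rare ones.

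**Figure D3:**
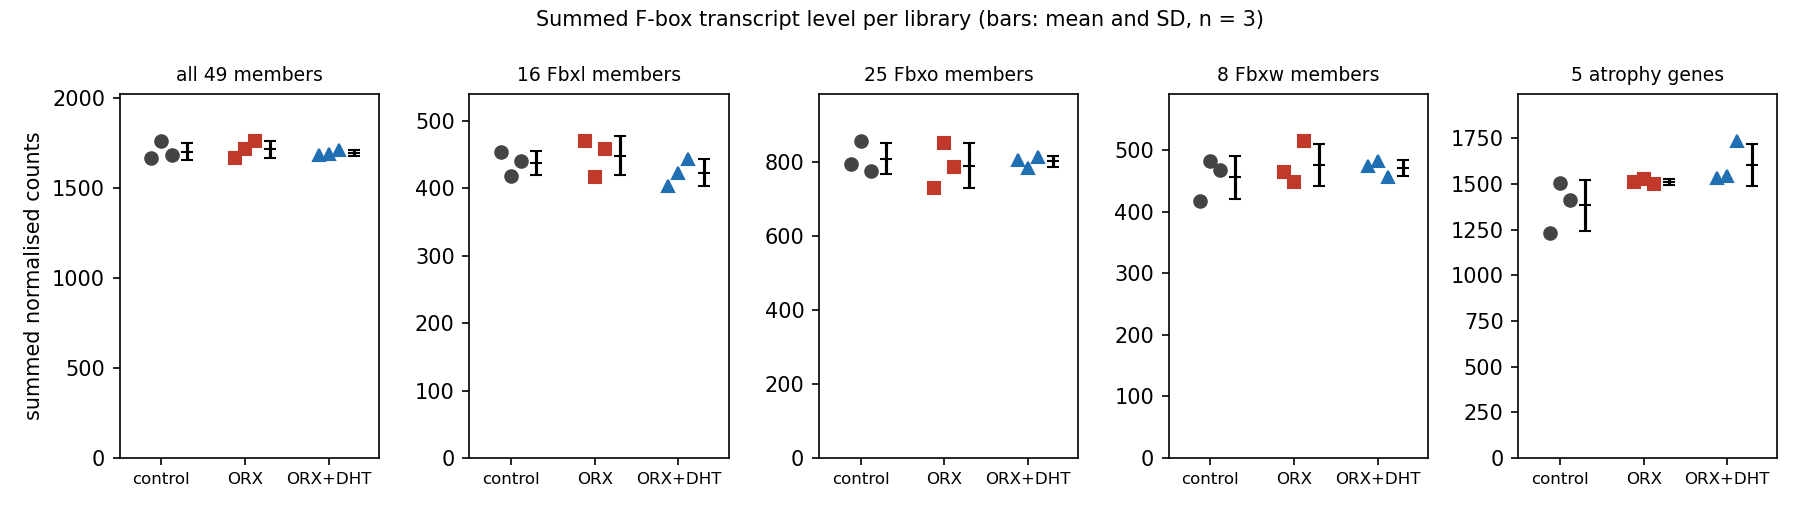
Summed normalised counts per library (linear axes from 0) for all 49 members in both tables, for the 3 classes and for the 5 left-out atrophy genes; points are libraries and bars are the mean and SD (n = 3). The 49 members stay between 1667 and 1763 in all 9 libraries, while the atrophy genes range from 1231 in control 1 to 1735 in ORX+DHT 3.

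None of the 5 left-out atrophy genes passed either. They were not called in any of the 4 comparisons (0 of 5 by limma, edgeR or DESeq2), with 2 at an unadjusted p under 0.05 after orchiectomy (7.21% of all genes), 1 with the hormone (14.3%), 1 between treated and control mice (6.48%) and 0 in the androgen contrast (9.44%). After orchiectomy 4 of the 5 were positive, and 3 had groups that did not overlap (14.3% of all genes). Fbxo32 averaged 409.7 ± 67.9 (control), 526 ± 27.0 (ORX) and 650.0 ± 155 (ORX+DHT) (SD, n = 3). Its log2 fold change was 0.65 ± 0.19 in ORX+DHT against control (unadjusted p = 0.0051, adjusted p = 0.675, limma). In ORX against control it was 0.37 ± 0.15 without overlap (unadjusted p = 0.0331, adjusted p = 0.675, limma). The mean was highest with the hormone and not in ORX, but the ORX+DHT libraries (517, 613 and 820) overlapped ORX.

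No gene of the ligase core passed. Of 6 genes for SCF core and cullin partners, 5 were tested and 0 passed in any comparison by limma, edgeR or DESeq2 (0 at an unadjusted p under 0.05). The adaptor Skp1 (listed as Skp1a) had 331, 315 and 289 (control), 264, 316 and 336 (ORX) and 308, 301 and 299 (ORX+DHT), the scaffold Cul1 119, 177 and 177 (control), 163, 160.3 and 149 (ORX) and 168, 147 and 137 (ORX+DHT), and the RING subunit Rbx1 149, 106 and 129 (control), 107, 125 and 115 (ORX) and 106, 112 and 116 (ORX+DHT). In these, groups overlapped and the androgen differences were 0.016 ± 0.11, -0.044 ± 0.14 and 0.043 ± 0.13. All 10 genes of the COP9 signalosome, which removes NEDD8, were tested and 0 passed in any comparison by any of these tools (0 at an unadjusted p under 0.05). Skp2, an F-box gene named otherwise, averaged 2.87 normalised counts and was not tested.

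Of 57 tested genes in 6 lists around the F-box subunits (SCF core, NEDD8 cycle, COP9 signalosome, ubiquitin E1 and E2 enzymes, F-box genes named otherwise, and described substrates), 5 passed in ORX+DHT against ORX: 4 rose and 1 fell. That set of 57 stands beside 4.08% of all genes called. Unadjusted p-values under 0.05 numbered 8 (14.3% of all genes), and edgeR called 5 and DESeq2 3. In the other comparisons limma, edgeR and DESeq2 called 0 of 57. The unadjusted p was under 0.05 for 3 genes after orchiectomy (7.21% of all genes), for 2 between treated and control mice (6.48%) and for 7 in the androgen contrast (9.44%). The median log2 fold change in ORX+DHT against ORX was 0.128 for the 16 substrates tested, 0.061 for the 13 NEDD8 cycle genes and -0.050 for the 5 SCF core genes, beside 0.0062 for all genes.

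Cand2, the muscle-enriched member of the CAND proteins that exchange F-box subunits, rose with the hormone. It had 192, 289 and 316 (control), 232, 261 and 225 (ORX) and 349, 321 and 305 (ORX+DHT), and every ORX+DHT library was above every ORX library. The log2 fold change was 0.44 ± 0.097 (SE) with adjusted p = 0.0119 (limma). Its relative Cand1 had 27.5, 25.4 and 24.8 (control), 22.6, 26.4 and 22.3 (ORX) and 33.4, 28.0 and 21.7 (ORX+DHT) and did not pass. Ube2d1, an E2 enzyme that works with SCF ligases, fell: it had 309.6, 266 and 278 (control), 301, 346 and 308 (ORX) and 235, 222 and 227 (ORX+DHT), with all 3 treated libraries below the other 6. Its fold change was -0.48 ± 0.094 with adjusted p = 0.00514. The related Ube2d3 averaged 406 ± 30.7 (control), 385 ± 31.1 (ORX) and 397 ± 15.5 (ORX+DHT) (SD, n = 3) and did not pass.

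The transcripts of 3 described substrates passed, and all rose with the hormone. Here, as for Ireb2, Bcl6 and Irs1, a transcript level does not measure protein breakdown or the activity of a ligase. Jun, a target of Fbxw7, had 137, 117 and 131 (control), 114, 114 and 93.5 (ORX) and 132, 166 and 169 (ORX+DHT), a fold change of 0.53 ± 0.13 and adjusted p = 0.0231. Actn2, alpha-actinin of the Z-disc, had 3120.2, 2806 and 3406 (control), 2887, 2709 and 2425 (ORX) and 3821, 3398 and 3178 (ORX+DHT), a fold change of 0.37 ± 0.087 and adjusted p = 0.0175. Flnc, filamin C, had 1299, 1896 and 2416 (control), 1694, 1769.7 and 953 (ORX) and 2803, 2702 and 1836 (ORX+DHT), a fold change of 0.76 ± 0.18 and adjusted p = 0.022 (limma). Actn2 and Flnc are both described targets of Fbxl22, whose own transcript was too scarce to test. They are also fibre genes. The fibre genes Acta1 and Myh1 rose in the same comparison, where 5 of 8 fibre markers were positive. Whether Actn2, Flnc, Acta1 and Myh1 move together for a shared reason was not tested.

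These 5 calls depended on the fit and on single libraries. With all 9 libraries in one fit, 0 of the 5 passed (adjusted p = 0.0739 for Ube2d1, 0.135 for Jun, 0.254 for Flnc, 0.274 for Actn2 and 0.362 for Cand2), while 5 of the reference genes still did. Ube2d1 held with each library left out in turn, and Cand2 was lost without ORX+DHT 1 (0.0935). Jun was lost without ORX 3, ORX+DHT 2 or ORX+DHT 3 (0.088 to 0.115) and Flnc without ORX+DHT 1 or ORX+DHT 2 (0.147 and 0.116). Actn2 was lost without ORX 2, ORX 3, ORX+DHT 1 or ORX+DHT 2 (0.0547 to 0.131). Quantile normalisation reduced the Actn2 change to 0.086 and ended that call (adjusted p = 0.676), and it also ended the Flnc call (0.0838). Flnc was lost as well with the robust fit (0.439) and with DESeq2 (0.405), and Jun with DESeq2 (0.0755). Without control 1, the androgen contrast called Cand2 (0.389, adjusted p = 0.0128), Ube2d1 (-0.350, 0.0192) and Flnc (0.677, 0.0292).

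Leaving out control 1 also brought out Irs1, a target of Fbxw8 and of the left-out Fbxo40. Irs1 had 51.2, 157 and 120.2 (control), 88.3, 75.1 and 55.4 (ORX) and 79.0, 93.8 and 74.1 (ORX+DHT) normalised counts, so control 1 was the lowest of the 9 libraries and the other 2 controls the highest. Without control 1 its log2 change from control was -0.930 in ORX mice (adjusted p = 0.0403, limma) and -0.739 in treated mice (adjusted p = 0.0373), against -0.46 and -0.27 with it (adjusted p = 0.788 and 0.856). The androgen contrast then gave 0.560 (adjusted p = 0.0451). Irs1 was noticed after its values were seen.

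**Figure D4:**
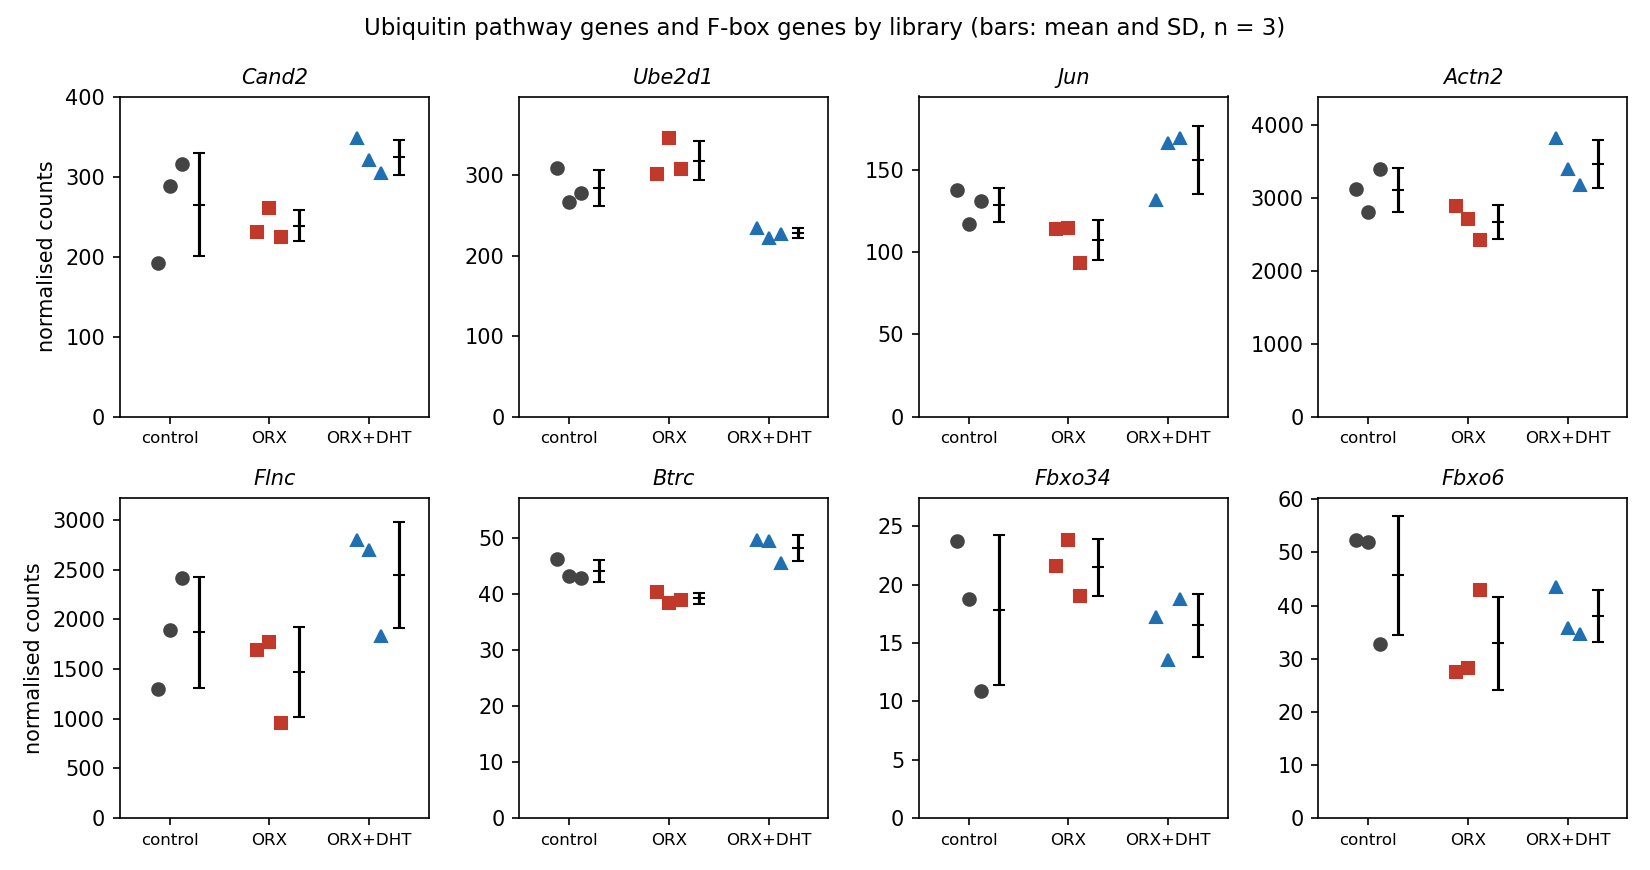
Normalised counts per library (linear axes from 0) of the 5 called pathway genes, of Btrc and of the F-box members Fbxo34 and Fbxo6; points are libraries and bars are the mean and SD (n = 3). Cand2, Jun, Actn2 and Flnc lie higher and Ube2d1 lower in ORX+DHT than in ORX, while the controls of Fbxo34 and Fbxo6 overlap both other groups.

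Some F-box genes overlap another coding gene on the opposite strand in the annotation, among them Fbxw5 (C8g), Fbxl5 (Bst1), Fbxl12 (Ubl5), Fbxl14 (Wnt5b), Fbxl22 (Herc1), Fbxo11 (Msh6) and Fbxo22 (Nrg4). These overlaps are of whole gene spans, introns included, and shared exons were not looked for. The library kit keeps the strand, but whether strand was used in counting is not given in the sources used here. Where exons overlap, the levels of these genes may include reads of their neighbours, which was not tested.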

How the data were processed

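Per the submitters' processing notes, reads were handled with Trim Galore 0.6.7, HISAT2 2.2.1, featureCounts 2.0.1 and DESeq2 1.36.0 on GRCm38; the annotation and the strand setting are not given in the sources used here. The authors deposited 2 tables of normalised counts for protein-coding genes, a signal in which the reads of a library are divided by 1 factor. Every value was a whole multiple of its library's step (100%, tolerance 0.01), so reads were recovered; for control 3, whose step is 0.992, this cannot be told from rounding. Columns named sham were taken as the control group, matched by replicate number, and 0 columns were left unmapped.

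The tables were scaled separately, so 2 comparisons stayed within a table: the orchiectomy comparison (ORX against control) and the hormone comparison (ORX+DHT against ORX). ORX+DHT against control, and the androgen contrast (mean of control and ORX+DHT, minus ORX), were tested on the 14300 shared genes after all 9 libraries were rescaled together by median-of-ratios factors; printed levels are on that joint scale. Fits used limma 3.58.1 in R 4.3.3, which shares information on spread over genes by a trend with level, on log2(value + 1), where a gene's mean reached 10. Benjamini-Hochberg adjustment ran over all genes of the fit, and an adjusted p under 0.05 counted as a call. This scale understates the change of low genes. The p-values measure the spread between these libraries, and 2 groups of 3 leave 4 residual degrees of freedom before that sharing. The fits were run on simulated data, and no estimate of their power to find a change is given here. Alternatives, among them edgeR 4.0.16 and DESeq2 1.42.0 on recovered reads, are in the closing section. Exon lengths and positions come from GENCODE M21 (GRCm38).

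Members named are those called, those whose groups do not overlap with a mean of at least 20 in the higher group, the 3 with the highest level per kilobase in each class, and Fbxw7, Fbxw8, Fbxl4, Fbxl5, Fbxl22, Fbxo7 and Fbxo11; of the surrounding lists, called genes and Skp1, Cul1, Rbx1, Skp2 and Btrc. Fbxl6, Fbxl12, Fbxo5, Fbxo38, Fbxw4, Fbxw17, Irs1 and other genes outside this rule were named after their values were seen. The values of 1 tested member enter the counts and are not reported here. The members and lists were chosen with earlier results of these data known.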

Additional observations from a re-analysis of the deposited data

How the results depend on the processing

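The count of F-box members called was 0 in every comparison and stayed 0 under all 70 alternatives: a pseudocount of 0.1 or 10, no filter or a stricter one (mean of 50), TMM or quantile scaling, a robust fit, a fit of all 9 libraries, edgeR, DESeq2, and each library left out in turn (0 to 0 in each comparison). With the replicate number as a replicate block the count was again 0 in each comparison. Same-numbered libraries did not deviate together in every pair of groups (r from -0.165 to 0.151). Between ORX and ORX+DHT, r was 0.063, 0.061 and 0.151 for same-numbered pairs and -0.087 to 0.025 for the others. What the number stands for beyond a biological replicate is not given in the labels. Over all genes the block gave 5, 571, 3 and 87 calls in the 4 comparisons, where the fit without it gave 5, 358, 3 and 101, edgeR 6, 366, 4 and 115, and DESeq2 28, 221, 13 and 121. Members with an unadjusted p under 0.05 numbered 0 to 1 after orchiectomy, 0 to 2 with the hormone, 0 to 1 between treated and control mice and 0 to 2 in the androgen contrast; the lowest adjusted p among them was 0.114 (Fbxo5, no filter).

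Of 957 alternative values for the 14 named members with a fitted value (Fbxl22 was too low to test), 956 moved by less than the spread between replicates. The exception was Fbxl4 in ORX+DHT against ORX without ORX+DHT 1, at 0.198. That bound is wide, because leaving out 1 of 3 libraries can seldom move a group mean so far. The count of 956 is therefore not a measure of stability. None of the 957 values passed the threshold, and 62 of these uncalled values changed sign. The alternatives for the surrounding pathway genes were chosen after the data were seen. Depth limits the 21 members with a mean under 10 most: with 1 to 77 reads over 9 libraries they can show only large changes.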
